A study of Homo sapiens with 2 samples.

Results

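LINC00467 is a long intergenic noncoding RNA gene on chromosome 1, and its expression was examined together with that of 5 protein-coding genes of the same stretch, namely RD3, TRAF5, RCOR3, NEK2 and DTL. Probe sets were taken where the platform annotation gave one of these 6 gene symbols, which left 7 probe sets of 16098 named ones, and 6 genes of 14884. RD3 had 2 probe sets and each of the other genes had 1. The symbols were chosen with earlier results of these data known, that of NEK2 among them, and every probe set of each symbol was taken. LPGAT1 and INTS7, which lie between NEK2 and DTL in gene order, were not among the symbols. The 5 neighbours are thus not an unselected sample of the locus.

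The measurements came from BE(2)-C, an established human neuroblastoma cell line in which the MYCN oncogene is amplified in both groups. One culture received control siRNA and the other received linc00467 siRNA, and RNA was taken 48 hours later. Each condition had 1 Affymetrix HuGene-2_0-st array, so neither a replicate error nor a p-value can be given for any difference. The methods name AllStars negative control siRNA for the control and a single linc00467 siRNA, No. 1, for the knockdown arm, so effects of that siRNA on other RNAs cannot be told apart from effects of losing linc00467. Title, source and treatment of the knockdown sample name linc00467, while its description names lncMycN.

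Long intergenic RNAs can act in cis, on genes beside their own locus, or in trans, on genes elsewhere, and the neighbours of such a gene are therefore the usual first place to look after a knockdown. An siRNA guides cleavage of RNA that matches it, mainly in the cytoplasm. The neighbours have unrelated roles. RD3 is a retinal protein that inhibits the photoreceptor guanylate cyclases and helps carry them to the outer segment, and its loss causes a form of Leber congenital amaurosis. TRAF5 is an adaptor below receptors of the tumour necrosis factor family, RCOR3 is a CoREST family corepressor that binds the demethylase KDM1A, NEK2 is a mitotic kinase that splits the centrosome linker, and DTL (also known as CDT2) is the substrate receptor of the CRL4 ubiquitin ligase that removes CDT1, p21 and the methyltransferase KMT5A when DNA is replicated.

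In RefSeq gene order on chromosome 1, RCOR3 is the third gene before LINC00467 and TRAF5 is the second, whereas RD3 lies 4 genes after it, NEK2 10 genes after it and DTL 20 genes after it. RCOR3, TRAF5 and DTL are transcribed from the plus strand, and RD3 and NEK2 from the minus strand. RefSeq promoter sequence (GRCh38.p14) was found for these 5 genes and not for LINC00467. The 250 bases before the start are shown for RD3, a neighbour that the study examined after the knockdown, and for DTL and NEK2, the neighbours whose levels differed most between the arrays. In the RD3 stretch (chr1:211492163-211492412, minus strand) capitals would mark any of the 5 motifs searched, and it holds none. In the DTL stretch (chr1:212035498-212035747, plus strand) capitals mark a CCAAT box and the E2F core TTTGGCG, which is typical of genes switched on at the start of DNA replication. In the NEK2 stretch (chr1:211675622-211675871, minus strand) capitals mark a pair of CCAAT boxes, the element bound by NF-Y that recurs in promoters of mitotic genes.
RD3: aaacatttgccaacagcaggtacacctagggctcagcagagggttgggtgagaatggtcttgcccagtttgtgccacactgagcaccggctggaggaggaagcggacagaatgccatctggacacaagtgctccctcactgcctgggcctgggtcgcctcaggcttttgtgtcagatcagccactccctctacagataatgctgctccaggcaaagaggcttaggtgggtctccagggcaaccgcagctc
DTL: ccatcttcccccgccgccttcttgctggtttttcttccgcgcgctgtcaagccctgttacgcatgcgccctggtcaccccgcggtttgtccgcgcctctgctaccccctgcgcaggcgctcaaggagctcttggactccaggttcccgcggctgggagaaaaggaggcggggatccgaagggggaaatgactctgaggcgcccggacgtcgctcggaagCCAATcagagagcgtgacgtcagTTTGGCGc
NEK2: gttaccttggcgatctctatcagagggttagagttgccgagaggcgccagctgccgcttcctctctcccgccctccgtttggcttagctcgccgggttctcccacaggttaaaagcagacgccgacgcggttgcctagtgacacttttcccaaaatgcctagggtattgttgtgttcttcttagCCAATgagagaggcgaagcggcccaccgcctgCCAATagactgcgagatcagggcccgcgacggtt

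The motifs searched on both strands were the GC box GGGCGG bound by Sp1, the E-box CACGTG bound by Myc proteins, the CCAAT box CCAAT, the E2F core TTTGGCG and the cell cycle homology region TTTGAA. In the same 250 bases of all 35116 RefSeq promoters, a GC box was found in 42.6%, an E-box in 6.34%, a CCAAT box in 32.0%, the E2F core in 1.59% and TTTGAA in 13.3%. The DTL matches begin at positions -31 (CCAAT) and -8 (E2F core) from the start, and the NEK2 matches at -66 and -34, with 1 GC box of NEK2 at -183. RD3 had 4 CpG dinucleotides in this stretch, against a median of 11 over all promoters, while NEK2 had 19 and DTL 25. RCOR3 has 2 annotated starts with 4 and 3 GC boxes, counting a pair that overlaps. TRAF5 has 3 starts, of which the first pair share the only E-box among these genes, at position -15 from one and -213 from the other. A match describes the letters of a stretch and says nothing of whether a factor binds there. For RD3, the study placed a region rich in Sp1 sites, where its immunoprecipitation assays found N-Myc, in intron 1. That region lies outside the 250 bases searched, so the empty RD3 stretch says nothing about it.

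The targeted RNA was lower after linc00467 siRNA. LINC00467 (probe set 16677153, transcript NR_026761) read 6.55 on the control siRNA array and 5.67 on the linc00467 siRNA array, as log2 levels. The second array thus gave 54.3% of the signal of the first, a log2 difference of -0.88 and a 1.84-fold reduction. At least 1.8 fold lower were 93 of the 16098 named probe sets, or 0.578%, and at least 1.8 fold higher were 36, or 0.224%. The study took this cut from the reduction of LINC00467 on these same arrays, so that LINC00467 passes it was fixed by its choice. LINC00467 was among the 79 named probe sets with a difference this low, which is 0.491% of them, against 0.758% of those at or above the median level and 1.15% of all probe sets, unnamed ones included. It was the fourth lowest of 1525 on chromosome 1. Differences also depend on level. Of the 1133 named probe sets within 0.25 of its mean log2 level, the central 95% ran from -0.59 to 0.43. Of these, 7 were as low or lower, LINC00467 itself included. Quantile normalization brought the reduction to 1.797 fold, just short of 1.8. The arrays read RNA of whole cultures, so a lower level in every cell and a loss in only some of the cells cannot be told apart.

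RD3, the nearest protein-coding gene after LINC00467, read exactly the same on both arrays. The log2 level at probe set 16677162 was 4.75 on the control siRNA array and 4.75 on the other, and at probe set 16698975 it was 7.36 on each. Both differences were 0.00, so neither probe set showed a higher RD3 level after linc00467 siRNA in these values. The study itself reported higher RD3 mRNA after linc00467 siRNA, measured by real-time RT-PCR in BE(2)-C and in Kelly cells. Its methods describe repeated experiments, whereas the values here come from 1 array per condition. The equal array values therefore cannot decide whether RD3 mRNA rose, and why the methods differ was not tested. Exact equality was common: 3689 named probe sets, or 22.9%, had it. Among named probe sets within 0.25 of the mean level it held for 34.7% around the lower RD3 probe set and 13.2% around the higher one. The control value of 16677162 recurred in 94 other probe sets of that array, and that of 16698975 in 7. A difference of 0 in these values is thus shared with many genes, and how small a change in RD3 mRNA it could hide cannot be read from 2 arrays. The central 95% of differences of named probe sets of similar level ran from -0.35 to 0.42 for the lower RD3 probe set and from -0.65 to 0.53 for the higher one.

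Both RD3 probe sets cite the same transcript, NM_183059, but their ID numbers lie in different ranges. Of 58 named chromosome 1 probe sets with IDs from 16698001 to 16700000 and a strand in the promoter table, all 58 belong to minus-strand genes, as RD3 does, and 16698975 is one of them. Of 56 with IDs from 16676001 to 16678000, 51 belong to plus-strand genes and 5 to minus-strand genes, and 16677162 is one of these 5. The strand each probe set detects was not given in the sources used here.

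TRAF5 and RCOR3, the protein-coding genes just before LINC00467, differed little and in opposite directions. TRAF5 (16677133) read 7.14 on the control siRNA array and 6.97 on the linc00467 siRNA array (log2 levels), a difference of -0.17, and 15.1% of named probe sets were as low or lower. RCOR3 (16677104) read 7.63 and 7.75, in the same order, a difference of 0.12, and 21.6% of named probe sets were as high or higher. Both lay within 1.2 fold, and both were inside the central 95% at their levels, which ran from -0.66 to 0.47 around TRAF5 and from -0.68 to 0.54 around RCOR3.

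NEK2 and DTL, the proliferation genes of the group, differed more and again in opposite directions. NEK2 (16698984) read 8.48 on the control siRNA array and 8.95 on the linc00467 siRNA array (log2 levels), a difference of 0.47 or 1.39 fold. Of 16098 named probe sets 356 were as high or higher, or 2.21%, as were 28 of the 802 of similar level, NEK2 itself included in both counts. DTL (16677201) read 11.57 and 11.15, in the same order, a difference of -0.42 or 1.33 fold lower. As low or lower were 753 named probe sets, or 4.68%, and 6 of the 82 of similar level, DTL itself included in both counts. Both values lay inside the central 95% at their levels, which ran from -0.58 to 0.50 around NEK2 and from -0.43 to 0.33 around DTL.

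**Figure D1:**
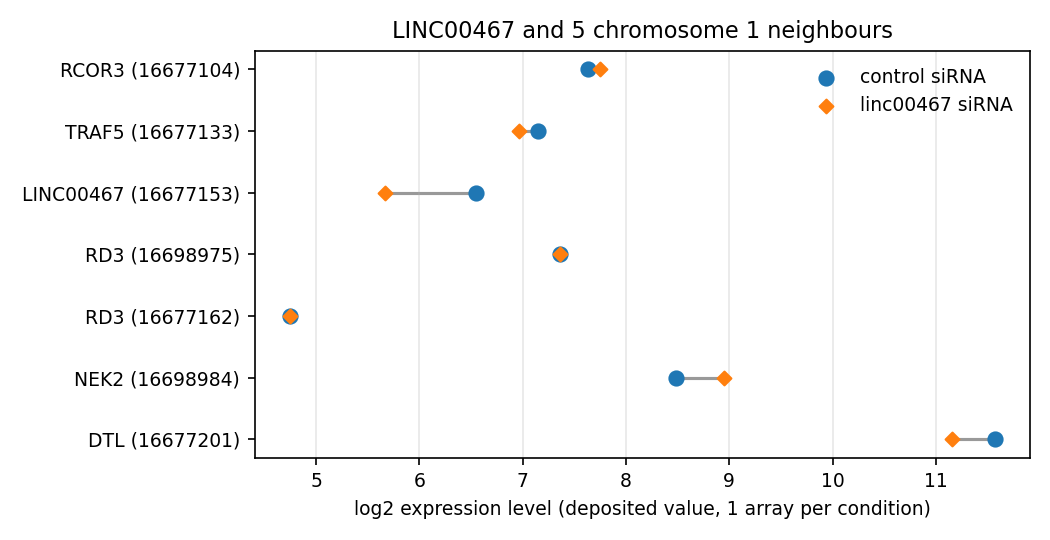
Log2 expression level (x axis, deposited values) of each probe set of LINC00467 and its 5 neighbours, in gene order from top to bottom, with control siRNA (blue circles) and linc00467 siRNA (orange diamonds), 1 array each. LINC00467 goes from 6.55 to 5.67, both RD3 probe sets have equal values, and NEK2 and DTL differ in opposite directions, by 0.47 and -0.42.

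Among the 6 probe sets of the 5 neighbours, NEK2 was past 1.2 fold upward and DTL downward, 2 were exactly equal, 0 passed 1.8 fold in either direction, and the median difference was 0.00. Over all named probe sets 8.5% were past 1.2 fold upward and 9.78% downward, also with a median of 0.00. LINC00467 was the only probe set of the 6 genes outside the central 95% of differences at its level.

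**Figure D2:**
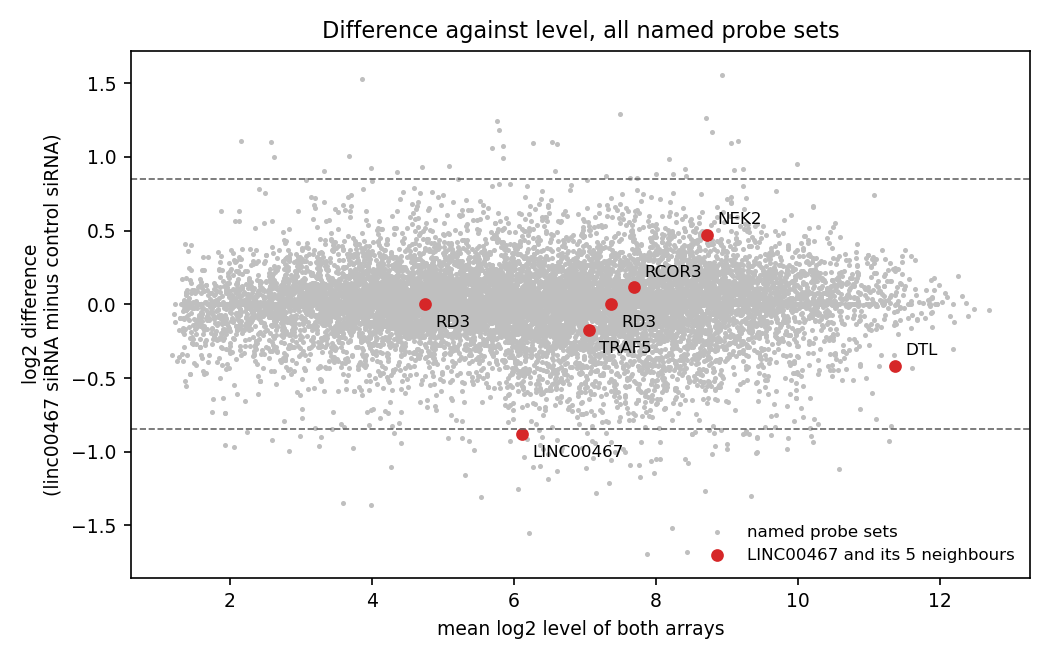
Log2 difference (y axis, linc00467 siRNA minus control siRNA) against the mean log2 level of both arrays (x axis) for all 16098 named probe sets (grey) and the 7 of LINC00467 and its neighbours (red); dashed lines mark 1.8 fold, a cut taken from LINC00467 itself. LINC00467 lies at -0.88 and the other 6 lie between -0.42 and 0.47.

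Genes whose pair of levels was most like that of LINC00467 lay on several chromosomes. By Euclidean distance between the 2 log2 levels, over 2 arrays, the 5 closest named probe sets were those of COX17, a copper chaperone gene of chromosome 3, at 0.114, the translation initiation factor gene EIF4B (chromosome 12) at 0.118, the noncoding LINC01686 (chromosome 1) at 0.131, ISLR (chromosome 15) at 0.174 and LONRF1 (chromosome 8) at 0.183. Their differences ran from -1.04 for EIF4B to -0.68 for ISLR. Closest to NEK2 were MBNL2, KIAA1586 and METTL14, to DTL SYT11, EIF4EBP2 and ANXA2P2, to TRAF5 MSRB1, BLVRA and ABHD3, and to RCOR3 DNMT3A, EDRF1 and THEM6. Both RD3 probe sets shared their values exactly with other probe sets. Closest to 16698975 were PHF13 and CPNE4, both at a distance of 0, and then KIF1B at 0.005. For 16677162 the closest were all tied at 0, so no order of likeness could be made for it.

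The wider locus was described in gene order. The 40 RefSeq genes on each side of LINC00467 include 26 protein-coding genes, of which 17 had a named probe set, and gave 22 named probe sets of 21 genes in all. Of the 22 probe sets, 2 were past 1.2 fold upward, 1 downward and 0 past 1.8 fold, and their median difference was 0.01. This is 9.09% higher and 4.55% lower, beside the 8.5% and 9.78% of all named probe sets. The 3 past 1.2 fold were NEK2, DTL and SERTAD4, a SERTA domain gene on the other side of LINC00467, which read 7.98 on the control siRNA array and 8.26 on the other, a difference of 0.28. On the side before LINC00467, 1 of 11 probe sets was higher and 0 were lower, and on the side after it 1 of 11 was higher and 1 was lower.

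Without the 5 neighbours the 16 other probe sets had 1 higher, 0 lower and 5 exactly equal. ATF3, a stress-induced transcription factor gene, had a log2 difference of 0.21, the nucleolar gene UTP25 had 0.20, the lysophospholipid acyltransferase gene LPGAT1 had 0.12, the synaptotagmin gene SYT14 had 0.11 and the neurotrophic factor gene NENF had 0.11. The Integrator subunit gene INTS7, which lies between NEK2 and DTL, had 0.03. HHAT, the acyltransferase gene of Hedgehog proteins, had -0.06 and the microRNA gene MIR3122 had -0.10.

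**Figure D3:**
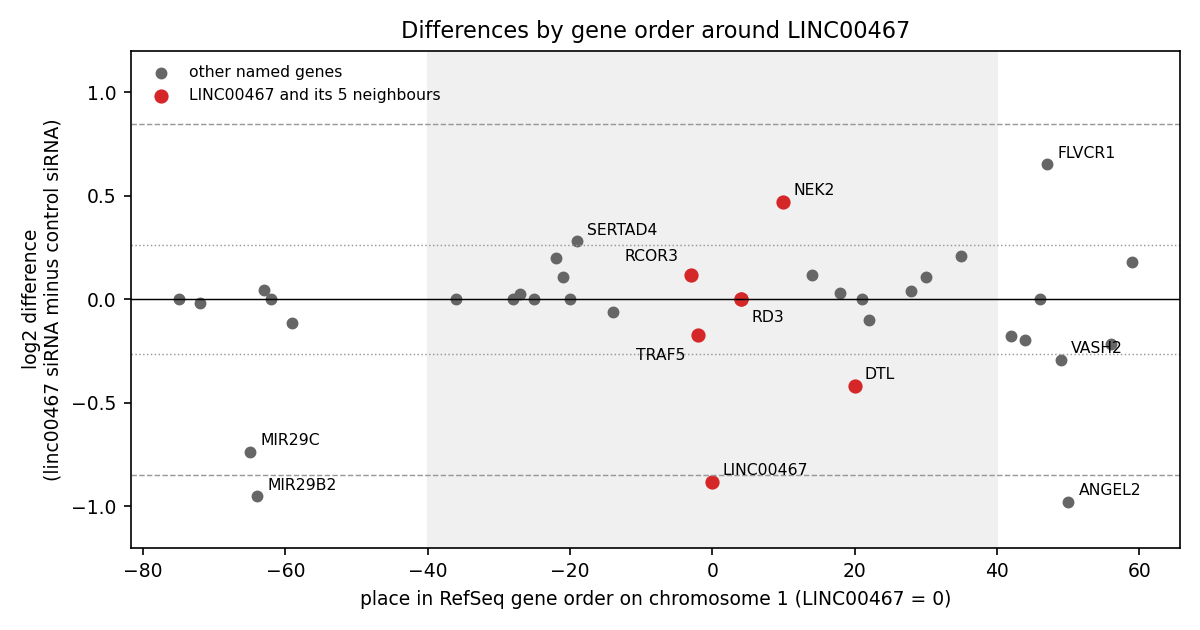
Log2 difference (y axis, linc00467 siRNA minus control siRNA, 1 array each) of named probe sets by place in RefSeq gene order on chromosome 1 (x axis, LINC00467 at 0), with LINC00467 and its 5 neighbours in red. Dotted and dashed lines mark 1.2 and 1.8 fold, and the grey band spans 40 genes a side, within which LINC00467 lies at -0.88 and the other points between -0.42 and 0.47.

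With 80 genes on each side, 37 probe sets were named, of which 3 (8.11%) were past 1.2 fold upward and 5 (13.5%) downward, beside 8.5% and 9.78% over all named probe sets. Past 1.8 fold downward were 2 of the 37, ANGEL2 and MIR29B2, beside 0.578% of all named probe sets. The genes named next were picked with their values in view. ANGEL2, an RNA phosphatase gene 50 places after LINC00467, read 7.45 on the control siRNA array and 6.47 on the other, a difference of -0.98, the lowest of all named probe sets on chromosome 1. The heme exporter gene FLVCR1, 47 places after it, had 8.05 and 8.70, a difference of 0.65, and VASH2, a vasohibin gene between them, had -0.29. On the other side, the microRNA gene MIR29B2 read 2.41 on the control siRNA array and 1.45 on the other, a difference of -0.95, and the adjoining MIR29C had 4.59 and 3.86, a difference of -0.74. Both control levels lie below 5.68, the median over named probe sets, and that of MIR29B2 is below the 3.67 of gene families taken as silent here. The major mature products of this pair share a seed, the bases 2 to 8 that pair with targets, shown in capitals. Whether their probe sets detect mature microRNA or longer RNA was not tested.
hsa-miR-29b-3p: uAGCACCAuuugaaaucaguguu
hsa-miR-29c-3p: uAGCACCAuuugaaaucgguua

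Over the whole of chromosome 1, 7.48% of 1525 named probe sets were past 1.2 fold upward and 8.79% downward, 4 were past 1.8 fold upward and 5 downward, and the median difference was 0.00.

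Genes linked to each neighbour, by joint action or by a shared family, pathway or disease, were then described, from 5 lists. A list member counts as measured only where it has a named probe set, and values are differences of log2 levels. For RD3, the list held guanylate cyclase, cyclic GMP and Leber congenital amaurosis genes, of which 22 of 35 were measured. A place on it through the disease does not mean that a gene acts with RD3. The genes of the retinal guanylate cyclases themselves, GUCY2D and GUCY2F, were not among the 22. Of 22 probe sets 0 were past 1.2 fold upward and 1 downward, 8 were exactly equal and the median was 0.00, beside 8.5% higher, 9.78% lower and 22.9% equal over all named probe sets. The lower one was IMPDH1, an enzyme of guanine nucleotide synthesis that most cells use, at 9.45 on the control siRNA array and 8.91 on the other. RD3L, the paralogue of RD3, had 3.53 and 3.67, and GUCA1C, a calcium sensor of the retinal cyclases, had 1.90 and 1.97. Both genes lie below the levels of gene families taken as silent, 3.67 on the control siRNA array and 3.74 on the other. Only 4 of the 22 probe sets lie at or above the median level of named probe sets. Of photoreceptor markers, 5 of 12 were measured, with control levels between 2.31 and 5.66, and 0 of them passed 1.2 fold. BE(2)-C is not a retinal cell. Adrenergic neuroblastoma markers, measured for 9 of 13 genes with 10 probe sets, had control levels between 6.52 and 11.67.

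For TRAF5, 21 of 42 genes of the TRAF family and of the NF-kappaB route were measured, with 23 probe sets. Of these, 2 (8.70%) were past 1.2 fold upward and 2 downward, around a median of 0.00, close to the 8.5% and 9.78% over all named probe sets. With quantile normalization 1 was lower. At or above the median level, where 18 of the 23 lie, the shares over named probe sets were 10.7% and 13.4%. The kinase gene CHUK, which encodes IKK-alpha, had a difference of 0.35 and the adaptor gene TRADD had 0.31. CYLD, a deubiquitinase that restrains the route, had -0.39 and BIRC2, a ubiquitin ligase that binds TRAF proteins, had -0.30. The paralogues TRAF1, TRAF3 and TRAF4 had -0.03, -0.07 and -0.25, and the NF-kappaB subunit gene RELA had 0.05.

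For RCOR3, 25 of 30 genes of CoREST complexes and their partners were measured, with 26 probe sets. Here 3 (11.5%) were past 1.2 fold upward and 2 (7.69%) downward, around a median of 0.00, beside 8.5% and 9.78% over all named probe sets. KDM1A, the demethylase of the complex, read 10.02 on the control siRNA array and 10.29 on the other, a difference of 0.27, while the deacetylase gene HDAC1 had 8.51 and 8.13, a difference of -0.38. The repressor genes SNAI1 and SNAI2, which recruit such complexes, had 0.35 and 0.33, and the neuroendocrine zinc finger gene INSM2 had -0.47. The paralogues RCOR1 and RCOR2 had 0.23 and -0.05, and REST had 0.25 from a control level of 4.22.

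For DTL, 25 of 39 genes of the CRL4-Cdt2 ligase, its substrates and replication licensing were measured, each with 1 probe set, and none of them in the lower part of the level range, below 5.68. Of these, 2 were past 1.2 fold upward and 5 downward, around a median of -0.01. Over all named probe sets 8.5% and 9.78% were, and over those at or above the median level 10.7% and 13.4%. The differences of CDC6 and E2F1, which are among the 5, were known when the list was chosen, so nothing is read from this count. The 2 higher became 4 with quantile normalization and 0 with lowess. The licensing factor gene CDC6 read 10.09 on the control siRNA array and 9.26 on the other, a difference of -0.83. The E2F transcription factor gene E2F1 had -0.64, and TDG, a DNA glycosylase removed by CRL4-Cdt2, had -0.62. The checkpoint kinase gene CHEK1 had -0.41 and the replication factor gene MCM10 had -0.31. The helicase subunit gene MCM3, at 0.28, and the histone mRNA-binding protein gene SLBP, at 0.27, were higher. The scaffold genes of the ligase, CUL4A and CUL4B, had 0.26 and 0.25, the substrate genes CDT1 and KMT5A had 0.05 and -0.17, and PCNA, the clamp on which the ligase finds its substrates, had equal values of 9.93.

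For NEK2, 37 of 46 genes of the NEK family, the centrosome and the spindle checkpoint were measured, each with 1 probe set. Of these, 4 (10.8%) were past 1.2 fold upward and 3 (8.11%) downward, 10 were exactly equal and the median was 0.00, beside 8.5% and 9.78% over all named probe sets. With quantile normalization 7 were higher. At or above the median level, where 32 of the 37 lie, the shares over named probe sets were 10.7% and 13.4%. The checkpoint kinase gene BUB1 read 9.11 on the control siRNA array and 9.51 on the other, a difference of 0.40. NDC80, a kinetochore protein that NEK2 phosphorylates, had 0.30, and the kinase genes NEK6 and NEK3 had 0.34 and 0.32. NEK7, the closest paralogue of NEK6, had 7.18 and 6.45, a difference of -0.73, and the checkpoint gene MAD2L1 and the centrosome gene CEP72 had -0.32 and -0.28. The mitotic kinase genes PLK1, AURKA and AURKB had 0.00, -0.15 and 0.00, the cyclin gene CCNB1 had 0.26 and CEP250, a centrosome linker substrate of NEK2, had equal values of 5.78. Differences of the measured NEK genes thus ran from that of NEK7 up to the 0.47 of NEK2.

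**Figure D4:**
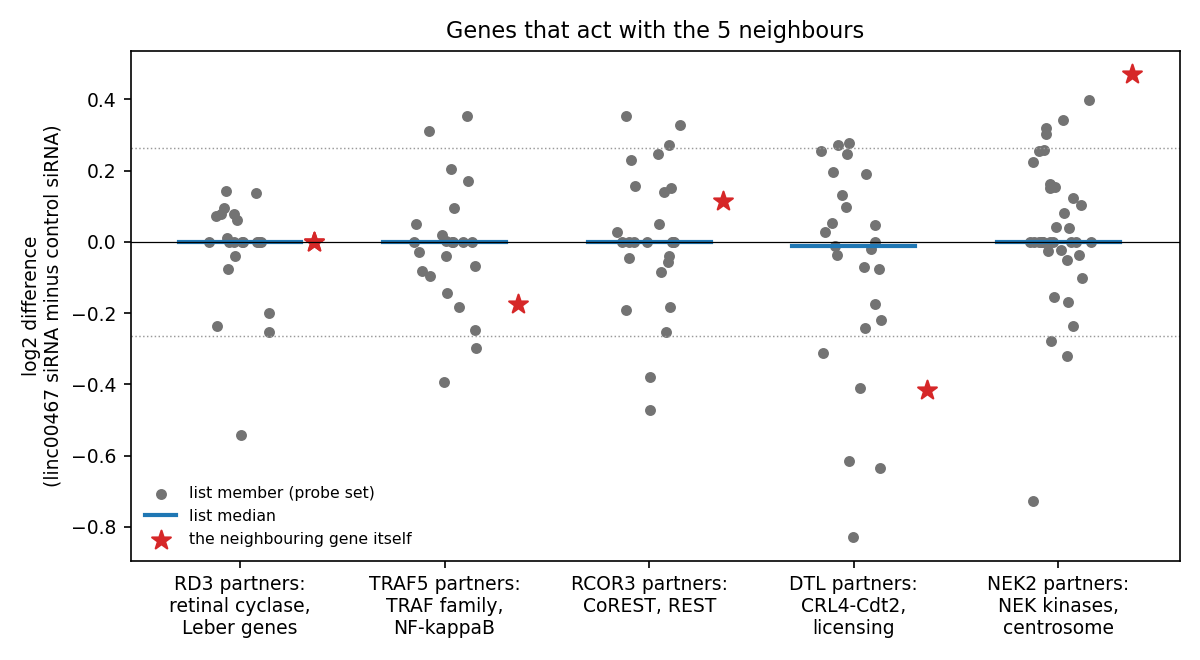
Log2 differences (y axis, linc00467 siRNA minus control siRNA, 1 array each) of probe sets of the genes listed for RD3, TRAF5, RCOR3, DTL and NEK2 (grey points, spread sideways for visibility), with each list's median (blue bar) and the neighbouring gene itself (red star). Not every listed gene acts with its neighbour, and many of the RD3 list are disease genes. All 5 medians lie between -0.01 and 0.00, and dotted lines mark 1.2 fold.

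Across named probe sets, which are not replicates, Pearson's r between the arrays was 0.995. Of the 10 probe sets of adrenergic neuroblastoma markers, 8 were below 0 in difference, 3 were past 1.2 fold downward and 2 upward, with a median of -0.17. The lower ones were the granin gene CHGA at -0.58, the dopamine beta-hydroxylase gene DBH at -0.41 and the transcription factor gene GATA3 at -0.30, and the higher ones were both of ISL1, at 0.29 and 0.30. All 10 lie at or above the median level of named probe sets. Of the 8049 named probe sets there, 3421 were below 0, 13.4% were past 1.2 fold downward and 10.7% upward. Of markers of other cells, 2 of 5 fibroblast genes were measured, LUM and DCN, and they differed in opposite directions. LUM read 8.14 on the control siRNA array and 9.70 on the other. Its difference of 1.56 was the largest increase of all 16098 named probe sets. DCN read 4.02 and 3.61, in the same order, and the 3.61 is below the 3.74 of gene families taken as silent on that array. Endothelial markers (3 of 4 measured), Schwann markers (2 of 5) and the blood marker CD14 (1 of 5 measured) lay within 1.2 fold. Their part in the differences of the 6 genes was not tested.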

How the data were processed

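Both columns hold the authors' deposited log2 levels, 1 per probe set and array, used without further scaling. The study's methods give R with Bioconductor as software, while MAS5 stands in the processing notes of the submitters. Which versions, normalization and genome build were used was not given in the sources used here.

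Differences are linc00467 siRNA minus control siRNA. The platform annotation named 16098 of 53617 probe sets, all with 1 symbol, and all 16098 matched RefSeq (GRCh38.p14) by gene number. The remaining 37519 are unnamed here. RefSeq positions served for gene order only. With 1 array per condition no test was made, and precision is limited by the number of arrays. Ranks over named probe sets and the central 95% of differences within 0.25 of a mean log2 level are descriptions. Folds of 1.2 and 1.8 were used, the latter being a cut that the study had set from LINC00467 on these arrays.

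Every probe set of the 6 genes was named in the text, with window genes and up to 4 members per list past 1.2 fold, further list members and window genes being named after their values had been seen. Members and lists were chosen with earlier results of these data known, CDC6, E2F1 and NEK2 among them. Alternatives were median centring, quantile normalization, lowess (fraction 0.2), a floor at silent gene families (3.67 and 3.74, over 87 probe sets), other folds, windows and probe set rules. Median centring, quantile normalization and lowess were tested on simulated data, and the floor was not. The simulated arrays differed by a constant shift and lacked the exactly equal values seen here. Python 3.11.15, numpy 2.4.6, pandas 2.3.3, statsmodels 0.14.6 and matplotlib 3.10.9 were used.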

Additional observations from a re-analysis of the deposited data

How the results depend on the processing

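The LINC00467 difference, -0.88 as deposited, kept its direction with quantile normalization and with lowess. It was -0.87 with lowess, and with quantile normalization -0.85, a fold of 1.797, and so just short of 1.8. Its share of probe sets as low or lower rose from 0.491% to 1.15% over all probe sets and 0.758% over named ones at or above the median level. NEK2 became 0.48 with quantile normalization and 0.46 with lowess, and DTL -0.41 and -0.43, all past 1.2 fold. Median centring and the floor could not move LINC00467, NEK2 or DTL, since the median difference was 0.00 and their levels lie above the floor. The probe set rules could not move NEK2 or DTL, since each has 1 probe set. The RD3 differences, which are 0.00 as deposited, became 0.00 and 0.05 with quantile normalization and -0.01 and 0.01 with lowess. Quantile normalization changed the TRAF5 list to 1 lower, the RCOR3 list to 4 higher, the DTL list to 4 higher and the NEK2 list to 7 higher and 2 lower, while over all named probe sets it changed 1368 higher and 1574 lower to 1611 and 1368. Lowess changed the RCOR3 list to 2 higher and the DTL list to 0 higher. With 80 genes a side 5 window probe sets were lower. At 1.5 fold the window and the RD3, TRAF5 and RCOR3 lists had 0 probe sets in either direction, the DTL list had 3 lower and 0 higher and the NEK2 list 1 lower and 0 higher, and at 1.8 and 2 fold all had 0. CDC6 and E2F1, known when the list was chosen, are among the 3. Over all named probe sets 0.224% were past 1.8 fold upward and 0.578% downward. Shares at 1.5 and 2 fold were not counted, so nothing is read from those counts. The cause of the shifts between settings was not tested. No paired analysis was possible because each condition had 1 array.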

Other observations

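Unnamed probe sets with IDs between those of the named neighbours were also read, without assigning genes to them. Between the IDs of TRAF5 and DTL lay 7 unnamed probe sets, with log2 differences from -0.71 to 0.19 and a median of -0.03, of which 0 were past 1.8 fold and 2 were exactly equal. Between the IDs of RD3 (16698975) and NEK2 lay 1 unnamed probe set, with a difference of -0.81, which is short of 1.8 fold. Shares over unnamed probe sets were not counted, so nothing is read from these values.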
